A study of Xenopus tropicalis with 10 samples.

Results

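Epidermal genes of the regenerating tadpole tail were followed as a set of 6: the lectins ITLN1, ITLN2 and FUCOLECTIN and the transcription factors FOXI1, TP63 and GRHL1. A row of the deposited table was taken where its gene name was one of these symbols, whatever its case, or such a symbol followed by a copy number. This gave 6 rows of 26550, 1 for each symbol and none with a copy number. All 6 passed the filter on low values, which asks for 10 normalised reads or more in no fewer than 2 libraries. The genes were picked with the values of these same libraries in view, so their levels and fold changes are a description and carry no test.

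The skin of a *Xenopus* tadpole is a mucociliary epithelium: goblet cells and small secretory cells release mucus and defence proteins, multiciliated cells drive fluid over the surface, and ionocytes pump ions. Intelectins are secreted lectins that bind sugars on microbes and are made by the goblet cells of tadpole skin, and fucolectins are lectins that bind fucose. FOXI1 directs the ionocyte fate, TP63 maintains the basal stem cells of stratified epithelia, and GRHL1, a grainyhead-like factor, regulates barrier and desmosome genes. TP63 and GRHL1 are thus regulators of the epidermal layers and not secretory or ionocyte genes.

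Tail RNA came from *Xenopus tropicalis*, a frog that regrows its tail as a tadpole, at stage 40. The labels name no genotype, allele or agent beside the amputation. Regenerating tails were collected at 72 hpa (hours post amputation, 2 libraries), 24 hpa (2 libraries), 15 hpa (1 library) and 6 hpa (1 library). The 0 hpa tissue (2 libraries) bordered the first wound and was taken by a second cut made at once on the same tadpoles. The whole tail (2 libraries) was the piece removed by the first cut. No group held uncut tadpoles as old as those of 72 hpa, so time after the cut and growth cannot be told apart. The design speaks of duplicates, while 15 and 6 hpa have 1 library each here, and whether each of these is a pool of duplicates was not given. The labels do not tie replicates to separate animals, so p-values measure only the spread between libraries, which may be technical.

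Gene reads ranged from 15966579 in 72 hpa replicate 2 to 128768239 at 6 hpa. A value is a normalised read count, the gene's reads divided by the size factor of the library, and 3 reads were worth between 0.852 and 7.29 normalised reads. Values are not per length, so each gene is compared with itself across libraries and not with other genes. In bulk tissue, fewer cells of a type and less RNA per cell cannot be told apart. Genes of the outer epidermis, summed over 28 symbols, took 0.908% and 0.676% of gene reads at 72 hpa, against 0.900% and 0.845% at 0 hpa.

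ITLN1, the first of the neighbouring intelectin genes, was highest in the whole tail and lowest at 72 hpa. It had 115788 and 119915 normalised reads in the whole tail, 58952 and 49720 for 0 hpa, 30717 for 6 hpa, 35646 for 15 hpa, 39345 and 26806 for 24 hpa, and 2319 and 72.9 for 72 hpa. The whole tail libraries stood above both 0 hpa libraries, the 0 hpa libraries above those of 6, 15 and 24 hpa, and all of these above both 72 hpa libraries. In the order of group means, 15, 24 and 6 hpa are neighbours, and the single values of 15 and 6 hpa lay between the 24 hpa libraries. The 72 hpa values were 4.27% and 0.134% of the 0 hpa mean. The fitted log2 fold change, on log2(normalised reads + 1), was -7.03 (SE 1.30) for 72 against 0 hpa and -8.15 (SE 1.30) for 72 hpa against the whole tail.

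ITLN2 was likewise highest in the whole tail and lowest at 72 hpa. It had 45876 and 50806 normalised reads in the whole tail, 31407 and 34305 for 0 hpa, 19897 for 6 hpa, 14498 for 15 hpa, 16071 and 12858 for 24 hpa, and 1410 and 51.0 for 72 hpa. The order of the groups ran without overlap from the whole tail through 0 and 6 hpa, the values of 15 and 24 hpa overlapped, and both 72 hpa libraries lay below all others. The fitted log2 fold change was -6.92 (SE 1.24) for 72 against 0 hpa and -7.48 (SE 1.24) for 72 hpa against the whole tail.

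The 72 hpa replicates differed 31.8-fold in ITLN1 and 27.6-fold in ITLN2, while in the other duplicated groups the replicates of either gene differed at most 1.47-fold. Replicate 1 held 3750 reads of ITLN1 and 2281 of ITLN2. Replicate 2 held 30 reads of ITLN1 (exact Poisson 95% interval 20.2 to 42.8) and 21 of ITLN2 (13 to 32.1), intervals that cover counting error only. The size of the difference at 72 hpa therefore rests on the replicate taken: without replicate 2 the log2 fold change of 72 against 0 hpa was -4.55 for ITLN1 and -4.54 for ITLN2, and without replicate 1 it was -9.52 and -9.30. Both single libraries nevertheless lay at least 23.3-fold below the 0 hpa mean in both genes.

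The intelectins moved as a pair. Their log2 values had a Pearson correlation of 0.996 over the 10 libraries, and the ratio of ITLN1 to ITLN2 normalised reads stayed between 1.43 and 2.52 in every library. This ratio is not per length, so only its steadiness can be read. Together they took 0.408% and 0.436% of gene reads in the whole tail, 0.216% and 0.207% at 0 hpa, and 0.0103% and 0.000319% at 72 hpa. In the RefSeq table (assembly UCB_Xtro_10.0) itln1 and itln2 are next to each other on chromosome 7. How the authors' counting divided reads between these near copies is not stated in the labels, and the split between them is uncertain.

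FUCOLECTIN, a fucose-binding lectin, had the lowest fitted fold change of the 6 genes at 72 hpa, although in 72 hpa replicate 2 alone ITLN1 and ITLN2 were further below their 0 hpa means (745-fold and 644-fold). It had 18795 and 7400 normalised reads in the whole tail, 8636 and 3847 for 0 hpa, 5700 for 6 hpa, 1796 for 15 hpa, 4217 and 784 for 24 hpa, and 17.3 and 17.0 for 72 hpa. Both 72 hpa libraries lay below all others and differed 1.02-fold from each other, against 2.24-fold at 0 hpa and 5.38-fold at 24 hpa. They rest on 28 reads (exact Poisson 95% interval 18.6 to 40.5) and 7 reads (2.8 to 14.4). The libraries were 361-fold and 367-fold below the 0 hpa mean, and the fitted log2 fold change was -8.31 (SE 0.79) for 72 against 0 hpa and -9.34 (SE 0.79) for 72 hpa against the whole tail. Values of the whole tail and 0 hpa overlapped, as did those of 24 and 0 hpa. The 24 against 0 hpa log2 fold change of -1.66 (SE 0.79) was -0.45 without 24 hpa replicate 2 and -2.88 without 24 hpa replicate 1.

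Among the 17896 genes tested, ranked by fitted fold change of 72 against 0 hpa from the most lowered, FUCOLECTIN was number 3, ITLN1 number 8 and ITLN2 number 11. FOXI1 was number 326, GRHL1 number 2538 and TP63 number 12515.

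FOXI1, the ionocyte regulator, was also lowest at 72 hpa, with a smaller difference. It had 2385 and 1495 normalised reads in the whole tail, 4690 and 2026 for 0 hpa, 2062 for 6 hpa, 1212 for 15 hpa, 1984 and 795 for 24 hpa, and 479 and 287 for 72 hpa. Both 72 hpa libraries lay below all others, and every pair of neighbours in the order 0 hpa, 6 hpa, whole tail, 24 hpa and 15 hpa overlapped. The 72 hpa libraries stood at 14.3% and 8.54% of the 0 hpa mean. The fitted log2 fold change was -3.05 (SE 0.55) for 72 against 0 hpa and -2.35 (SE 0.55) for 72 hpa against the whole tail. Replicates of 0 hpa differed 2.31-fold, and the 72 against 0 hpa value was -2.45 without 0 hpa replicate 1 and -3.66 without 0 hpa replicate 2.

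TP63, the basal stem cell factor, stayed between 8034 and 14002 normalised reads in all libraries. It had 8739 and 8065 normalised reads in the whole tail, 9456 and 8034 for 0 hpa, 9537 for 6 hpa, 11457 for 15 hpa, 9977 and 12385 for 24 hpa, and 14002 and 8467 for 72 hpa. The highest and lowest groups by mean, 15 hpa and the whole tail, did not overlap. The 72 hpa libraries spanned the values of all other libraries except whole tail replicate 2 and 0 hpa replicate 2, which lay just below them. The fitted log2 fold change was 0.32 (SE 0.26) for 72 against 0 hpa and 0.35 (SE 0.26) for 24 against 0 hpa.

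GRHL1 stood lower at 72 hpa than at 0 hpa by less than a log2 unit. It had 9686 and 14731 normalised reads in the whole tail, 16018 and 14633 for 0 hpa, 11110 for 6 hpa, 8601 for 15 hpa, 11438 and 12631 for 24 hpa, and 10051 and 6734 for 72 hpa. Values of 72 hpa lay below those of 0 hpa and overlapped those of the whole tail and of 15 hpa. The fitted log2 fold change was -0.90 (SE 0.27) for 72 against 0 hpa and -0.54 (SE 0.27) for 72 hpa against the whole tail.

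**Figure D1:**
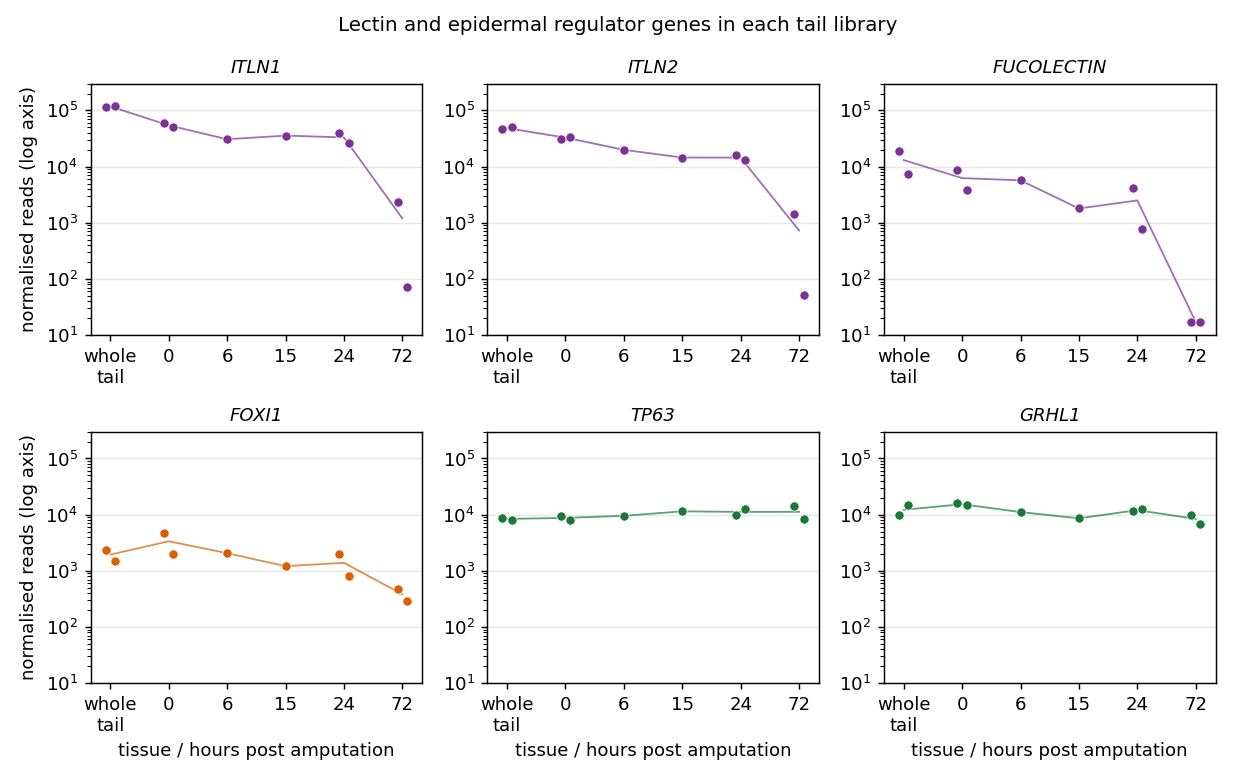
Normalised reads (log axis) of the 6 genes in each of the 10 libraries, by tissue and hours post amputation; points are libraries and lines join group means. Both 72 hpa points of ITLN1, ITLN2, FUCOLECTIN and FOXI1 lie below all other points, ITLN1 and ITLN2 split widely between the 72 hpa replicates, and TP63 stays between 8034 and 14002.

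Of the 6 genes, 5 were lower in both 72 hpa libraries than in both 0 hpa libraries, and 26.6% of all genes tested were. Against the whole tail, 4 of 6 were lower without overlap, and 27.5% of all genes were. At 24 against 0 hpa, 4 of 6 were lower without overlap, ITLN1, ITLN2, FOXI1 and GRHL1, and 25.8% of all genes were. ITLN1, ITLN2, FUCOLECTIN and FOXI1 had both 72 hpa libraries below all 8 others, as had 7.89% of all genes. The genes were chosen on these contrasts, so nothing is read from the counts.

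Before 72 hpa the intelectins had lower values than in the removed tail. ITLN1 and ITLN2 had log2 fold changes of -1.12 (SE 1.30) and -0.56 (SE 1.24) for 0 hpa against the whole tail, which are pieces of the same tadpoles taken at once. Both 0 hpa libraries lay below both whole tail libraries, as they did in 17.9% of all genes tested. The SEs are larger than the differences, but they pool the spread of all duplicated groups, the wide split at 72 hpa included. By the same pooling, the SEs of the 72 hpa comparisons understate the spread of the 72 hpa replicates (31.8-fold in ITLN1 and 27.6-fold in ITLN2). Replicates of 0 hpa and of the whole tail differed at most 1.19-fold in ITLN1 and ITLN2. FOXI1 had 0.71 (SE 0.55) in the same comparison, with overlapping libraries. For 24 against 0 hpa the values were -0.74 for ITLN1, -1.19 for ITLN2, -1.66 for FUCOLECTIN and -1.29 for FOXI1, and for 72 against 24 hpa they were -6.29, -5.73, -6.65 and -1.76.

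In the authors' deposited table, ITLN1, ITLN2 and FUCOLECTIN share cluster C1, which holds 250 genes. FOXI1 and GRHL1 carry the authors' mark of differential expression in that deposited table without a cluster, and TP63 carries neither; the test behind the mark is not stated. In 217 of the 250 genes of C1, both 72 hpa libraries lay below the other 8, as they did in 7.89% of all genes tested. The median log2 fold change of 72 against 0 hpa over C1 was -1.35. Cluster C4 had this trait too, in 314 of its 535 genes, with a median of -1.9, while C5 to C8 had 0 such genes. The clusters were deposited with the values of these same libraries, so nothing is read from these counts.

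The members' log2 values over the 10 libraries gave Pearson correlations of 0.91 between ITLN1 and FUCOLECTIN, 0.84 between ITLN1 and FOXI1, and 0.92 between FUCOLECTIN and FOXI1. TP63 had negative correlations with all of the other 5 genes, between -0.46 and -0.15. These describe 10 libraries in which the 72 hpa values weigh most. By the same measure, the genes with a symbol most like ITLN1 were FN3K (0.99), a kinase that repairs glycated proteins, B3GALT2-LIKE.1 (0.99) and SPAG5 (0.98), a spindle protein. FN3K (0.99) also led for ITLN2, with CKAP2-LIKE and PARPBP (0.99 each). TUBB4B (0.98), a beta tubulin, PNLIPRP2-LIKE.2 (0.98) and HIBADH (0.98), an enzyme of valine breakdown, were most like FUCOLECTIN. ALDH5A1 (0.97), an enzyme of GABA breakdown, GPR101 (0.97) and SDR42E1-LIKE (0.96) were most like FOXI1. For TP63 they were USP34 (0.94), ZFHX2-LIKE (0.94) and REV3L (0.93), and for GRHL1 TMEM60 (0.94), GPR157 (0.94) and PTGR1.1 (0.93), each over 10 libraries.

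Relatives of the members took other courses. LOC100485391-LIKE, whose locus RefSeq names itln1al, was picked for description after its values were seen. It had 1.86 and 0 normalised reads in the whole tail, 1.87 and 10.99 for 0 hpa, 33.5 for 6 hpa, 213 for 15 hpa, 457 and 324 for 24 hpa, and 404 and 476 for 72 hpa. All libraries of 15 hpa and later lay above all earlier ones. It rose at 72 against 0 hpa (log2 fold change 6.23, SE 0.78, limma adjusted p = 0.010 over all genes tested) and at 24 against 0 hpa (6.04, SE 0.78, limma adjusted p = 0.026). The 72 against 0 hpa call was lost without 72 hpa replicate 2 (limma adjusted p = 0.059; from 2.4e-16 to 0.059 over 19 alternatives), and the 24 against 0 hpa call without any replicate of 24 or 0 hpa. Both were also lost where every gene with a read was tested (limma adjusted p = 0.055 for 72 and 0.087 for 24 hpa). Between 72 and 24 hpa it did not pass (0.19, SE 0.78, limma adjusted p = 0.96), the interval over which ITLN1 and ITLN2 had log2 fold changes of -6.29 and -5.73.

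The fucolectin gene next to FUCOLECTIN in RefSeq, LOC100491211-LIKE, had 35.2 and 36.5 normalised reads at 72 hpa against 7.49 and 1.83 at 0 hpa, and between 2.71 and 10.8 in the other libraries. The log2 fold change of 2.91 (SE 0.87) for 72 against 0 hpa did not pass the test (limma adjusted p = 0.095). TP73, a relative of TP63, had 1317 and 593 normalised reads at 72 hpa against 232 and 302 at 0 hpa. It rose at 72 against 0 hpa (log2 fold change 1.73, SE 0.39, limma adjusted p = 0.043), a call that was lost without any replicate of the whole tail, 0 hpa or 24 hpa and without 72 hpa replicate 1.

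**Figure D2:**
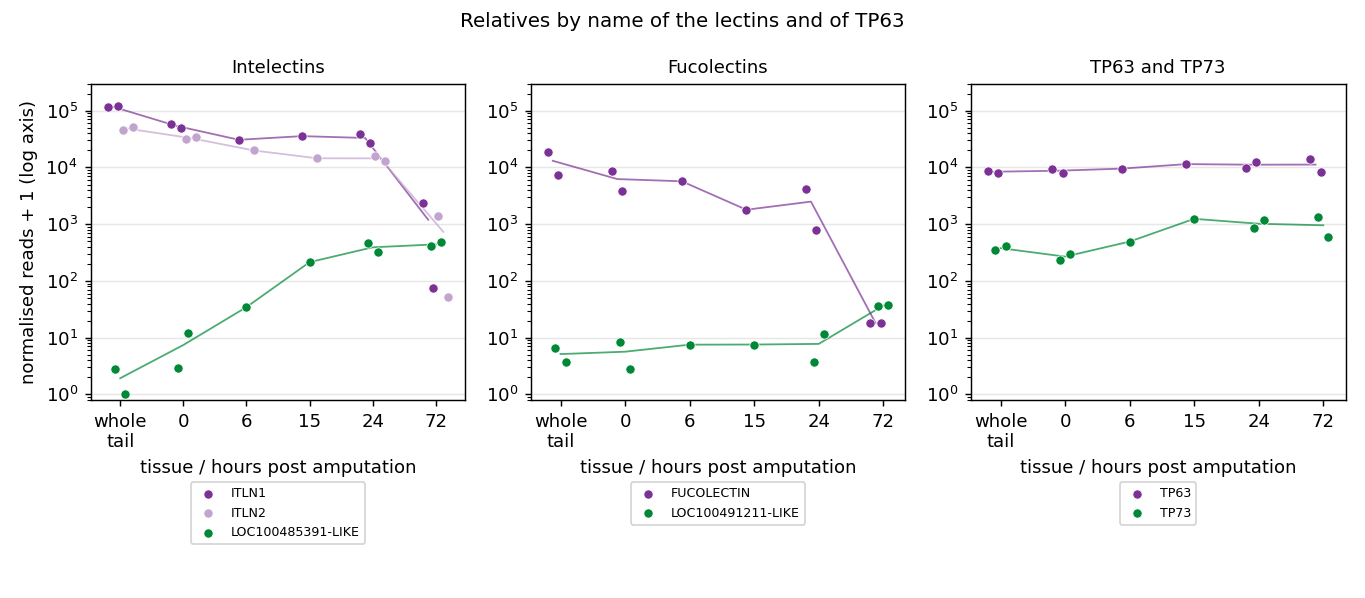
Normalised reads + 1 (log axis) of the intelectins, the fucolectins, and TP63 with TP73 in each of the 10 libraries; points are libraries and lines join group means. LOC100485391-LIKE stands at 457 and 324 at 24 hpa and at 404 and 476 at 72 hpa, while ITLN1 and ITLN2 are lowest at 72 hpa; heights of different genes are not per length and cannot be compared.

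GRHL2 and GRHL3, the other grainyhead-like factors, did not pass in any comparison. GRHL2 had 2326 and 1548 normalised reads at 72 hpa against 1456 and 1623 at 0 hpa (limma adjusted p = 0.45), and GRHL3 had 7984 and 7065 at 72 hpa against 6260 and 8772 at 0 hpa (limma adjusted p = 0.97). FOXI2, FOXI4.1 and FOXI4.2, relatives of FOXI1, stayed at 21.98 normalised reads or less in all 10 libraries.

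To place the members among other genes of the epidermis, lists of secretory, ionocyte, multiciliated, basal and outer epidermal genes were compared, with the members left out. The lists do not show that their genes are expressed in the same cells as the members. They hold 118 genes of the table, of which 113 passed the filter. At 72 against 0 hpa, 14 of the 113 fell and 3 rose (limma, Benjamini-Hochberg adjusted p under 0.05), 15.0% in all, and 6.40% of all genes tested were called. The median log2 fold change was -0.40 over the 113 genes and 0.02 over all genes tested. The count of falls rests on single libraries: it was 0 without 0 hpa replicate 1, 0 hpa replicate 2 or 72 hpa replicate 2, 5 without either whole tail replicate, and 7 without 72 hpa replicate 1. It was 1 where every gene with a read was tested, and 23 by DESeq2.

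Secretory genes had the most falls: 7 of 18 fell, 0 rose and 11 did not pass, with a median of -0.78, while 3.53% of all genes tested fell. SPDEF, an ETS factor that drives secretory cell maturation, had 24.1 and 31.6 normalised reads at 72 hpa against 536 and 343 at 0 hpa (log2 fold change -3.91, SE 0.71, limma adjusted p = 0.027). FOXA1, the forkhead factor that specifies small secretory cells in *Xenopus* skin, had 537 and 513 at 72 hpa against 1357 and 1145 at 0 hpa (-1.25, SE 0.26, limma adjusted p = 0.035). DDC, the decarboxylase that makes serotonin, which small secretory cells release, had 147 and 153 at 72 hpa against 3534 and 2041 at 0 hpa (-4.15, SE 0.70, limma adjusted p = 0.023). In each of these genes the 72 hpa libraries lay below all 8 others, as they did in 7.89% of all genes tested. These genes were already called as falls, so this is a description only.

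SCG2 and CHGA, granins of secretory granules, fell together: SCG2 fell by 2.41 (SE 0.32, limma adjusted p = 0.012) and CHGA fell by 2.01 (SE 0.32, limma adjusted p = 0.019) on the log2 scale. PCSK1, a protease that processes prohormones, fell by 3.999 (SE 0.77, limma adjusted p = 0.030). AGR3, a protein disulfide isomerase, had no read in either 72 hpa library against 52.5 and 42.1 normalised reads at 0 hpa (limma adjusted p = 0.033; 0.065 with edgeR, and between 0.00061 and 0.17 over all alternatives), which is at least 10.3-fold lower when 3 reads are allowed in each 72 hpa library. The genes that did not pass include AGR2 (-0.86, limma adjusted p = 0.15), OTOGL, an otogelin-like mucin relative (-0.52, limma adjusted p = 0.75) and MUC19, a gel-forming mucin (-0.09, limma adjusted p = 0.97). The 7 falls are in granule, serotonin, isomerase and regulator genes and hold no mucin gene. Only 20 of the 35 symbols of this list were found, and MUC19 was the only mucin symbol tested. The SEs of MUC19 (0.99) and OTOGL (0.85) are wide, so whether mucin genes fell is not shown.

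Neurons also express CHGA, SCG2, PCSK1 and DDC. Neuron markers moved the same way: 9 of 13 fell and 0 rose at 72 against 0 hpa, while 3.53% of all genes tested fell. Summed, the neuron markers took 0.00836% and 0.00719% of gene reads at 72 hpa against 0.0317% and 0.0251% at 0 hpa. None of them was at 0 reads in both 72 hpa libraries. Their part in the falls of these 4 genes was not tested.

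Of 22 ionocyte genes, 4 fell, 0 rose and 18 did not pass, with a median of -0.71, while 3.53% of all genes tested fell. SLC26A4, the anion exchanger pendrin, had 8920 and 4418 normalised reads at 72 hpa against 38707 and 20711 at 0 hpa (log2 fold change -2.17, SE 0.44, limma adjusted p = 0.035). BSND, the barttin subunit of chloride channels, had 13.6 and 14.6 at 72 hpa against 174 and 80.6 at 0 hpa (-2.99, SE 0.66, limma adjusted p = 0.041). ATP6V0D2, a subunit of the proton pump, fell by 1.51 (SE 0.31, limma adjusted p = 0.035), and ATP1B2, a subunit of the sodium pump, fell by 1.36 (SE 0.30, limma adjusted p = 0.041).

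The ionocyte regulators beside FOXI1 did not pass. UBP1, a CP2-family transcription factor, had 351 and 31.6 normalised reads at 72 hpa against 2046 and 1096 at 0 hpa (log2 fold change -3.81, SE 0.99, limma adjusted p = 0.066). Both 72 hpa libraries of UBP1 lay below all others, as in 7.89% of all genes tested. DMRT2, a DM-domain transcription factor, had 1065 and 1249 at 72 hpa against 523 and 912 at 0 hpa (0.74, SE 0.57, limma adjusted p = 0.48). Against the whole tail, 0 of the 22 ionocyte genes passed at 72 hpa by limma, with 8 at an unadjusted p under 0.05, 0 by edgeR and 3 by DESeq2. For SLC26A4 the whole tail held 13973 and 10571 normalised reads, below both 0 hpa libraries, so its 72 hpa difference from the whole tail was smaller (-0.95, SE 0.44, limma adjusted p = 0.22).

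Of 22 multiciliated cell genes, 3 fell and 0 rose at 72 against 0 hpa, while 3.53% of all genes tested fell. Lower values were found in 21 of the 22 (median -0.94), and in 8684 of the 17896 genes tested. In bulk tail tissue the list does not show which cells expressed these genes. Neuron markers also fell (9 of 13), and whether cells outside the skin took part in these falls was not tested. FOXJ1, the master regulator of motile cilia, had 472 and 306 normalised reads at 72 hpa against 1619 and 848 at 0 hpa (log2 fold change -1.62, SE 0.36, limma adjusted p = 0.043). TEKT3, a tektin of ciliary microtubules, fell by 2.13 (SE 0.43, limma adjusted p = 0.033), and CFAP45, a protein inside those microtubules, fell by 1.78 (SE 0.41, limma adjusted p = 0.047). Over 19 alternatives the call of FOXJ1 was lost in 10, that of CFAP45 in 8 and that of TEKT3 in 7. Scaling by total reads was among those that lost FOXJ1 and CFAP45. FOXJ1.2 (-1.54, limma adjusted p = 0.077) and FOXN4, a regulator of multiciliated cells (-0.97, limma adjusted p = 0.29), did not pass. In the authors' deposited table, 11 genes of this list are in cluster C4, which holds 535 of the 26550 genes. None is in C1, which holds only 250, so nothing is read from that absence.

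Of 23 basal epidermal genes, 3 rose, 0 fell and 20 did not pass (median 0.14), while 2.87% of all genes rose. Of the 23, 14 had higher and 9 lower values, against 9212 and 8684 of the 17896 genes tested. FREM2, a basement membrane protein of the Fraser complex, had 51357 and 46531 normalised reads at 72 hpa against 9404 and 6821 at 0 hpa (log2 fold change 2.61, SE 0.26, limma adjusted p = 0.0052). Its partner FREM1 rose by 2.16 (SE 0.26, limma adjusted p = 0.0094). The calls of FREM1 and FREM2 at 72 hpa held under all 19 alternatives. Of 28 outer epidermal genes 0 passed (median -0.07; 6 at an unadjusted p under 0.05; 0 by edgeR and 1 by DESeq2), OVOL2, a factor of the outer layer, among them (-0.27, limma adjusted p = 0.48).

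**Figure D3:**
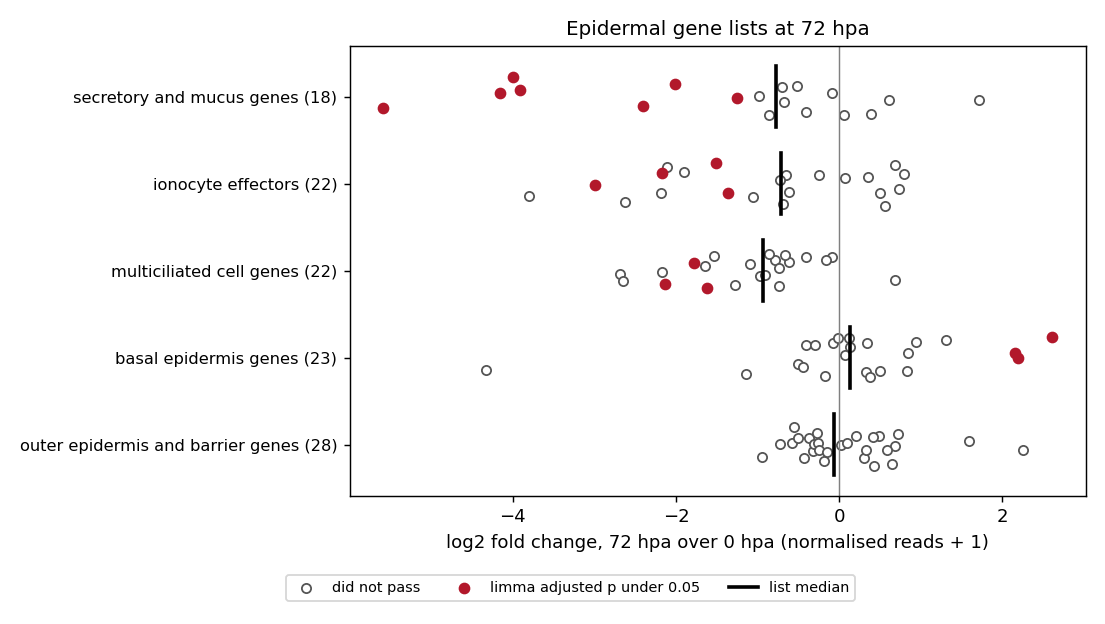
Log2 fold change of 72 over 0 hpa, on log2(normalised reads + 1), for every tested gene of the 5 epidermal lists; filled points passed limma's adjusted p under 0.05 and bars are list medians. The filled points of the secretory, ionocyte and multiciliated lists lie left of 0 and those of the basal list right of it; the outer list has none.

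At 72 hpa against the whole tail, 13 of the 113 genes fell and 8 rose (18.6%), and 9.29% of all genes tested were called: 4.68% fell and 4.61% rose. Nearly all of the falls rest on single libraries: 0 fell and 5 rose without whole tail replicate 1, 1 fell and 6 rose without whole tail replicate 2, and 1 fell and 4 rose without 72 hpa replicate 2. The count of all calls was 6 where every gene with a read was tested, and 36 by DESeq2. Secretory genes had 7 falls. SPDEF fell by 3.58 (SE 0.71, limma adjusted p = 0.025), DDC by 4.02 (SE 0.70, limma adjusted p = 0.017) and CHGA by 2.38 (SE 0.32, limma adjusted p = 0.0078). Multiciliated genes had 5 falls, among them DNAH9, a dynein heavy chain of cilia (-3.03, SE 0.70, limma adjusted p = 0.038), and MYB, a factor of the developing multiciliated cell (-2.98, SE 0.62, limma adjusted p = 0.028). The 72 hpa values of MYB rest on 150 and 10 reads. Of 18 erythroid markers 8 fell in this comparison too, and which cells expressed MYB was not tested.

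Of the 23 basal genes, 7 rose against the whole tail and 1 fell. COL17A1, a collagen of the hemidesmosome, had 113945 and 80743 normalised reads at 72 hpa against 8730 and 17891 in the whole tail (log2 fold change 2.94, SE 0.35, limma adjusted p = 0.0061). DST, a plakin of the same junction, rose by 2.03 (SE 0.25, limma adjusted p = 0.0063). FREM1, FREM2, FERMT1 and KRT5.2 also rose, and KRT5.7 fell by 2.002 (SE 0.41, limma adjusted p = 0.028). KRT5.2 and KRT5.7 carry copy numbers of the same keratin symbol, and how reads were divided between such copies is not stated. Its part in their opposite directions was not tested, and these stay uncertain. In the outer list TGM1, a transglutaminase of the skin barrier, rose by 1.34 (SE 0.28, limma adjusted p = 0.029). Of the rises named here, several were partly or mostly present at 0 hpa. None passed limma for 0 hpa against the whole tail, a comparison in which limma called 0% of all genes. DESeq2 passed COL17A1 (adjusted p = 0.0047), DST (0.0071) and KRT5.2 (0.0028) there, and not FERMT1 (0.34), TGM1 (0.066), FREM2 (0.20) or FREM1. The 0 hpa log2 fold changes were 1.63 for COL17A1, 1.20 for DST, 3.04 for KRT5.2, 0.63 for FERMT1 and 1.01 for TGM1. They were -0.10 for FREM1 and -0.78 for FREM2. For 72 against 0 hpa COL17A1, DST, KRT5.2, FERMT1 and TGM1 did not pass limma (adjusted p = 0.072, 0.094, 0.70, 0.39 and 0.53).

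Earlier times gave few calls in these lists. At 24 against 0 hpa 3 of 113 rose, FREM2 and FREM1 among them, and 0 fell, while 0.967% of all genes were called. The log2 fold change of FREM2 was 3.17 (SE 0.26, limma adjusted p = 0.0077). The count of 3 was 0 without 0 hpa replicate 2 or either 24 hpa replicate. At 15 against 0 hpa, where a single library takes the spread of the duplicated groups, 2 rose, FREM2 among them, while 0.363% of all genes were called and 0.229% rose; the count was 1 without either whole tail replicate and 0 without any replicate of 0, 24 or 72 hpa. At 24 hpa against the whole tail, 3 rose, FREM1 and FREM2 among them, and CHGA fell by 1.92 (SE 0.32, limma adjusted p = 0.042), while 1.11% of all genes were called; the count was 0 without whole tail replicate 1 or either 24 hpa replicate and 2 without whole tail replicate 2.

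No gene of the 5 lists passed limma for 6 against 0 hpa (7 at an unadjusted p under 0.05; 0 by edgeR and 1 by DESeq2) or for 0 hpa against the whole tail (16 at an unadjusted p under 0.05; 0 by edgeR and 3 by DESeq2), and 0% of all genes were called in either. Each count was 1 without a whole tail replicate, replicate 1 for 6 hpa and replicate 2 for 0 hpa. For 72 against 24 hpa 0 passed too (25 at an unadjusted p under 0.05; 0 by edgeR and 12 by DESeq2), while 0.0726% of all genes were called, 0.0391% as rises; without 24 hpa replicate 2 the count was 2, both falls. The differences of secretory and ionocyte genes between 72 and 24 hpa are therefore not shown by this test, though SPDEF had 24.1 and 31.6 normalised reads at 72 hpa against 537 and 97.3 at 24 hpa.

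**Figure D4:**
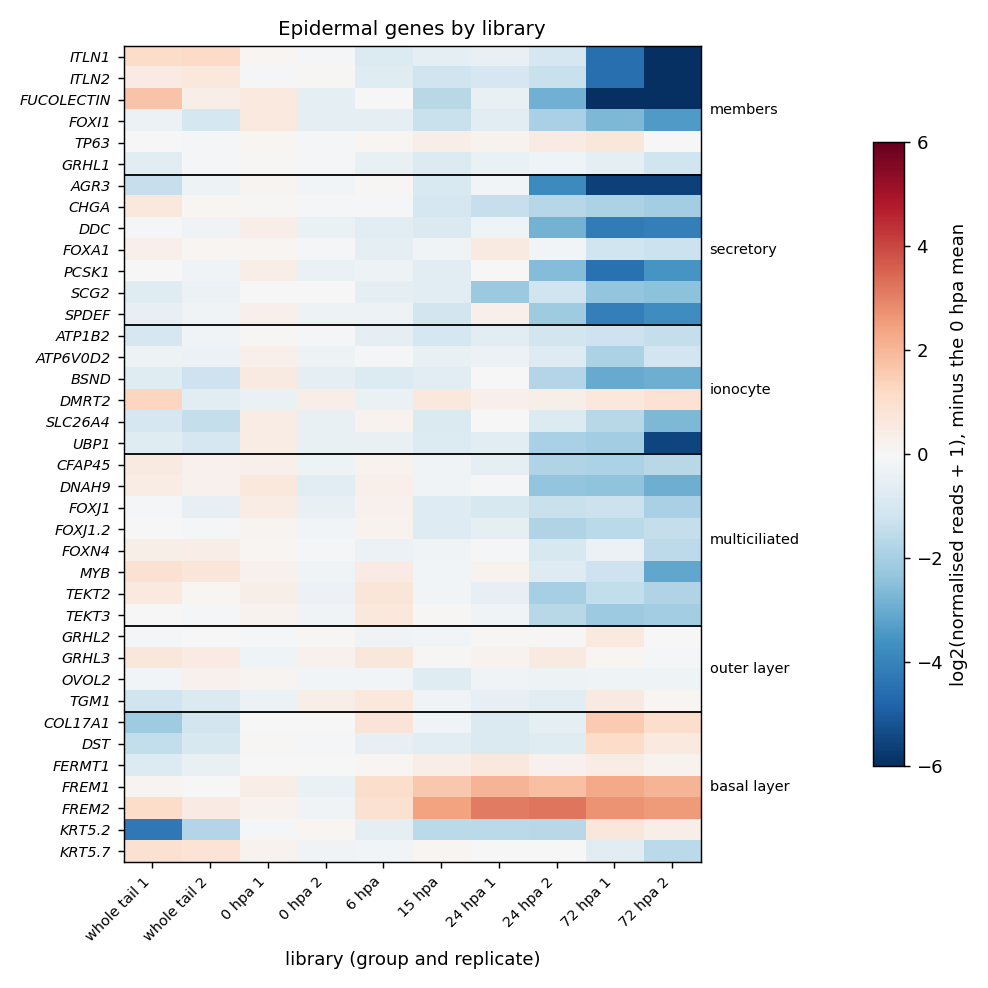
Log2(normalised reads + 1) of each gene in each library, minus the gene's mean at 0 hpa, for the members and for called genes and regulators of the 5 lists; blue is lower and red higher than 0 hpa, and colours stop at 6 log2 units. The members ITLN1, ITLN2, FUCOLECTIN and FOXI1 and the secretory rows darken to blue at 72 hpa, and FREM2 is red from 15 hpa on.

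Replicates of the same time also differed in these genes. At 24 hpa the log2 value of replicate 2 minus that of replicate 1 was -2.43 in FUCOLECTIN, -1.32 in FOXI1, -0.55 in ITLN1 and -0.32 in ITLN2, with a median of -0.88 over the multiciliated list and -0.01 over all genes tested. At 0 hpa the same difference was -1.17 in FUCOLECTIN and -1.21 in FOXI1, with a median of -0.68 over the multiciliated list and -0.02 over all genes tested. What sets these replicates apart was not tested.

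Other cell types changed over the same interval. At 72 against 0 hpa 16 of 18 erythroid markers fell, and their sum was 0.124% and 0.304% of gene reads at 72 hpa against 1.21% and 3.90% at 0 hpa. Of 10 leukocyte markers 8 rose, with sums of 0.0582% and 0.0433% at 72 hpa against 0.0169% and 0.0187% at 0 hpa. Over all genes tested 3.53% fell and 2.87% rose. Of 15 skeletal muscle markers 0 passed limma (0 at an unadjusted p under 0.05), with sums of 0.339% and 1.65% at 72 hpa against 0.703% and 0.678% at 0 hpa. No marker of these 3 lists was at 0 reads in both 72 hpa libraries. Their part in the values of the epidermal genes was not tested.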

How the data were processed

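The 10 libraries were made with an Illumina TruSeq kit, per the labels' protocols. R 3.2.0, HTSeq, SAMtools 1.1, TopHat2 2.0.13, DESeq2 and Trim Galore 0.3.3 were used, per the submitters' processing notes, which give no roles. The labels name no genome build. Coordinates are therefore left out, and RefSeq served for names and neighbours. The authors deposited a normalised signal per gene, with their own cluster and mark of change. All values (100%, tolerance 0.01) were whole multiples of 1 read, and the steps matched median-of-ratios size factors to 1.7e-09, so reads were recovered from them.

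limma 3.58.1 (R 4.3.3) was run on log2(signal + 1) with a variance trend, for the 17896 of 26550 genes that reached 10 normalised reads in 2 libraries or more. All 10 libraries and 6 groups entered a single fit, so the single libraries at 6 and 15 hpa take the spread of the other 4 groups. Fold changes on this scale understate those of low genes. Benjamini-Hochberg adjusted p under 0.05 over all genes tested was called. The script was tested on simulated data. Members, lists and naming rules were chosen with earlier results of these data known. Named are the members, up to 3 called genes per list, comparison and direction with the smallest p, a panel of regulators, and for each member the 3 genes with a symbol of highest Pearson correlation. Other names are the remaining called genes of a list, relatives of the members by name, or examples, all chosen after their values were seen. Alternatives were other scalings, filters (50 normalised reads, or any gene with 1 read), pseudocounts (0.5 and 8), edgeR 4.0.16 and DESeq2 1.42.0 on the recovered reads, a replicate block, and leaving out each library. Some genes that meet these rules are counted in their lists and not reported here by name.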

Additional observations from a re-analysis of the deposited data

Results flagged for a closer look

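In 4 genes of the basal and outer lists, COL17A1, DST, KRT5.2 and TGM1, every 24 hpa library was lower and every 72 hpa library higher than the 0 hpa mean. None passed limma against 0 hpa at 24 hpa (adjusted p = 0.36, 0.19, 0.29 and 0.37 in this order). None passed at 72 hpa either (limma adjusted p = 0.072, 0.094, 0.70 and 0.53). A turn of direction is therefore not shown, and the share of all genes with this pattern is not given. Both comparisons share the 0 hpa libraries. The log2 difference of 72 from 24 hpa was 2.03 for COL17A1 (fitted values of 1.31 at 72 hpa and -0.72 at 24 hpa, each against 0 hpa), and 1.61 for DST (0.83 and -0.78). It was 2.15 for KRT5.2 (0.51 and -1.64), a keratin copy whose reads may be shared with others, and 0.88 for TGM1 (0.33 and -0.56). The difference between the times did not pass limma in any of the 4 (adjusted p = 0.15, 0.11, 0.32 and 0.32 in this order), nor edgeR (0.17, 0.16, 0.31 and 0.31). DESeq2 gave adjusted p = 1.3e-05, 9e-06, 0.014 and 0.12. No cause was tested.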

How the results depend on the processing

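Counts of called genes are over the 113 tested genes of the 5 epidermal lists. They stayed within 1.5 times the reported count with TMM and total-read scaling, edgeR, the filter of 50 normalised reads and both pseudocounts. DESeq2 called 3 for 0 hpa against the whole tail, 1, 10 and 29 for 6, 24 and 72 against 0 hpa, 12 for 72 against 24 hpa, and 11 and 36 for 24 and 72 hpa against the whole tail. Without a filter beyond 1 read, limma called 1, 0, 1 and 3 for 6, 15, 24 and 72 against 0 hpa, and 0 and 6 for 24 and 72 hpa against the whole tail; more genes were tested then, and the cause was not tested further. Leaving out 1 library gave 0 to 1 for 0 hpa against the whole tail, 0 to 1, 0 to 2, 0 to 4 and 2 to 18 for 6, 15, 24 and 72 against 0 hpa, 0 to 2 for 72 against 24 hpa, and 0 to 4 and 5 to 25 for 24 and 72 hpa against the whole tail. Scaling by total reads moved the median of all genes by up to 0.18 (15 against 0 hpa), with 3 rises and 11 falls at 72 against 0 hpa. No call reversed.

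The labels give no shared animal or batch for a replicate number, and the deviations of same-number replicates correlated between -0.14 and 0.27 over the 6 pairs of groups, with only 2 pairs above 0.1, so the numbers were not taken to pair the libraries. In FOXI1 and FUCOLECTIN replicate 2 was nevertheless below replicate 1 in all 4 duplicated groups. For FUCOLECTIN at 72 hpa the values were nearly equal (17.3 and 17.0 normalised reads, from 28 and 7 reads). With a replicate block, 21 genes were called for 72 against 0 hpa, 1 for 72 against 24 hpa and 29 for 72 hpa against the whole tail. The calls of ATP1B2 (adjusted p = 0.059) and TP73 (0.057) at 72 against 0 hpa were lost under the block. With the 72 hpa numbers crossed, a choice made after seeing the data, 0 and 24 were called for 72 hpa against 24 hpa and the whole tail. At 72 hpa, counting error limits FUCOLECTIN, and ITLN1 and ITLN2 in replicate 2. It also limits list genes in that replicate, such as BSND (6 reads), MYB (10 reads), SPDEF (13 reads) and UBP1 (13 reads).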
